A study of Mus musculus with 6 samples.

Results

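The EGF family ligands and the ERBB receptors were examined in crypt epithelium of mice, the cell layer of the intestinal crypts, as 10 genes named by symbol among the 24930 rows of the deposited table. They comprise 7 ligand genes (Areg, Ereg, Hbegf, Btc, Epgn, Tgfa and Egf) and 3 receptor genes (Egfr, Erbb2 and Erbb3), and all 10 symbols were found. RNA sequencing had been done on 3 libraries of β-catenin GOF/+ crypts, called mutant here, in which 1 allele of the β-catenin gene was made a gain-of-function allele 4 days before sampling, and on 3 control libraries of the same day. The table's mutant columns carry a name for a heterozygous exon change. The labels do not state the genotype of the controls, the Cre line, the age of the mice or whether animals were pooled. They do not tie a library to an animal either, so a p-value here reflects only the spread among the 6 libraries, part of which may be technical.

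ERBB receptors are tyrosine kinases that pair when an EGF family ligand binds, and they signal through the RAS-ERK and PI3K cascades. The ligands are made as membrane proteins and are released by proteases of the cell surface. EGFR binds all 7 of these ligands, ERBB2 has no known ligand of its own and serves as a partner, and ERBB3 binds neuregulins and has little kinase activity. In the crypt, EGF and TGFα from Paneth cells support stem cell division, and the ligands amphiregulin (Areg) and epiregulin (Ereg) are associated with repair after injury.

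The values are a normalized abundance per gene, called units. Among 592 low genes with 1 annotated transcript, the value of 1 read fell as the transcript got longer, with a slope of -0.94 between the log2 values, so levels of different genes are compared below as amounts per length. Reads per unit differed between libraries, from 0.886 to 1.42 relative to control replicate 1, and library totals ranged from 645225 to 1268771 units. Markers of epithelium summed to 4719 to 5762 units in the controls, against 5398 to 7182 units in the mutants, so the defining genes of the labelled tissue were present throughout. Of these 8 markers 2 were above in all mutant libraries, beside 8.34% of all genes tested. The tissue is a mixture, and fewer cells of a type and less RNA per cell cannot be told apart in it. Mutant replicate 3 stands apart from the other libraries in several of the genes below, and results that rest on it are given with and without it.

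The promoters of 2 ligand genes of the same cluster are shown, Areg because its mutant values lay apart from the controls and Epgn because it was near the limit of detection in both groups. Epgn, Ereg, Areg and Btc follow each other on chromosome 5 with no other protein-coding gene between them in the RefSeq annotation of GRCm38.p6. The other 6 members lie on other chromosomes, where only Egfr and Erbb2 share one. The sequences are RefSeq windows of 300 bases on the plus strand of GRCm38.p6, from 250 bases before to 50 after the start of the gene, at chr5:91139349-91139648 for Areg and chr5:91027267-91027566 for Epgn. Capitals mark the cyclic AMP response element (CRE).
Areg: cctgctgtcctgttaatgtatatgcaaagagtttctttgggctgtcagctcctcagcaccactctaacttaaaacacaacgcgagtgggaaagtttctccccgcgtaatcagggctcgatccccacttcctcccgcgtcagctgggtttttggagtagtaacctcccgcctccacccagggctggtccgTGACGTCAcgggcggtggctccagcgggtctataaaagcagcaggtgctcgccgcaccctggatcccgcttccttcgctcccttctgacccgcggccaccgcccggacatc
Epgn: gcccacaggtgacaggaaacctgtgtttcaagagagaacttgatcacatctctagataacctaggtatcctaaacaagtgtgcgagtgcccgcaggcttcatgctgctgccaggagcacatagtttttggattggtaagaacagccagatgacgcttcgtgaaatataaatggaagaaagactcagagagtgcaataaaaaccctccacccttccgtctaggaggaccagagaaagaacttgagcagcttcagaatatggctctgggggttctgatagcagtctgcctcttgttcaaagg
The letters of the CRE, TGACGTCA, occur once in the Areg window, starting at position -61 relative to the start site, and a TATA box (TATAAA) starts at -31. The Epgn window holds the letters of a TATA box once, at -86, and no CRE. Windows of 7 of the 10 members were searched (8 windows, as Egf has 2). The other 3, Ereg, Hbegf and Erbb3, were not searched, so whether their promoters hold these motifs is not known here. Of the 8 windows, 1 holds the CRE, 0 the AP-1 motif TGANTCA, 0 the TCF motif CTTTGAT, 1 (Erbb2) the TEAD motif GGAATG and 2 the TATA letters. Both strands were searched, and the letters of no motif contain those of another. Among all 32851 windows of this length the shares were 1.79% for the CRE, 7.81% for AP-1, 3.73% for TCF, 14.7% for TEAD and 13.6% for TATA.

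The comparison of mutant with control crypts addressed whether genes of regeneration and of the fetal gut are active soon after induction of the mutant allele, and the ligands belong to the signals of repair. In limma on log2(units + 1), 8 of the 10 members reached the average of 1 unit or more across the 6 libraries that was needed for testing, and Epgn and Egf did not. Ereg, at 0.778 units in the controls, reached that mean through its mutant values, so no count of tested members is support for a difference. No member passed an adjusted p of 0.05, where 0.0169% of the 11837 genes tested did, and the adjusted p of the 8 members lay between 0.589 and 0.937. At an unadjusted p under 0.05 there were 3 members, Areg, Hbegf and Erbb3, where 8.31% of all genes were. Areg and Ereg, 2 of the 8 tested members, had every mutant library above every control library, and 0 had every mutant library below; over all genes tested the shares were 8.34% above and 8.37% below. The 5 tested ligands had a median log2 difference of 1.21 and the 3 receptors of -0.24, beside a median of -0.02 over all genes tested. Without mutant replicate 3 these medians were 0.54 for the ligands and -0.16 for the receptors. The ligand median leaves out Egf and Epgn, whose means with all libraries were lower in the mutants. Egf had 1.05 units in the controls and 0.886 in the mutants (1.13 without mutant replicate 3), and Epgn 0.117 and 0.0622. The median therefore rests on genes that the filter kept, and is no support for a difference of the ligands as a family.

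Amphiregulin, a ligand of EGFR that is released by ADAM17 and is induced in wounded epithelium, showed the widest span of any member. Areg stood at 1.00, 0.716 and 1.65 units in control replicates 1 to 3 and at 6.86, 4.60 and 106 units in mutant replicates 1 to 3. The lowest mutant value was above the highest control value, and mutant replicate 3 was far above the other mutant libraries. The Areg values were whole multiples of a single step within 0.01, which gave 15, 11 and 35 reads in the controls, against 102, 93 and 1395 reads in the mutants. Exact Poisson limits of 95%, which cover counting error only, ran from 0.357 to 2.29 units over the control libraries and started at 3.72 units in mutant replicate 2, so the groups also stood apart beyond counting error. The log2 difference of Areg was 3.00 ± 1.04 (SE), the third largest of the 11837 genes tested, with an adjusted p of 0.589 in limma. The ratio of group means was 34.7 with all libraries and 5.11 without mutant replicate 3. Without that library the log2 difference was 1.67 (adjusted p of 0.270 in limma).

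Epiregulin, a ligand of EGFR and ERBB4 encoded next to Areg, had the same order of libraries within the mutant group at lower levels. Ereg stood at 0.674, 0.605 and 1.06 units in control replicates 1 to 3 and at 1.75, 1.39 and 10.1 units in mutant replicates 1 to 3. All 3 mutant values were above all 3 control values, and the gap between the groups was narrow. The reads behind them were 39, 36 and 87 in the controls, against 101, 109 and 515 in the mutants, and the Poisson limits of control replicate 3 (0.846 to 1.30 units) and mutant replicate 2 (1.14 to 1.68 units) overlapped. The log2 difference of Ereg was 1.24 ± 0.56 (SE; adjusted p of 0.589 in limma), and it was 0.54 without mutant replicate 3 (adjusted p of 0.819 in limma). Areg exceeded Ereg 1.18- to 1.56-fold in the controls, against 3.91-, 3.31- and 10.5-fold in mutant replicates 1 to 3.

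Heparin-binding EGF-like growth factor, encoded by Hbegf, binds EGFR and ERBB4. Hbegf stood at 2.11, 2.68 and 5.49 units in control replicates 1 to 3 and at 7.32, 5.18 and 17.0 units in mutant replicates 1 to 3. Control replicate 3 was above mutant replicate 2, so the groups overlapped. The recovered reads were 68 to 252 in the controls and 226 to 486 in the mutants. The log2 difference was 1.21 ± 0.44 (SE; adjusted p of 0.589 in limma) and 0.77 without mutant replicate 3 (adjusted p of 0.834 in limma).

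Betacellulin, encoded by Btc at the end of the chromosome 5 cluster, was high in a single library. Btc had 2.24, 2.87 and 2.18 units in control replicates 1 to 3 and 2.48, 2.24 and 8.30 units in mutant replicates 1 to 3. The mutant replicates 1 and 2 lay within the control range, and the log2 difference went from 0.46 ± 0.40 (SE; adjusted p of 0.661 in limma) to -0.03 when mutant replicate 3 was left out (0.992). Epgn, which encodes epigen and lies at the other end of the cluster, was near the limit of detection. It had 3, 2 and 4 reads in control replicates 1 to 3, against 0, 1 and 3 reads in mutant replicates 1 to 3, or 0.136, 0.0879 and 0.127 units and 0, 0.0334 and 0.153 units. The count of 0 in mutant replicate 1 allows up to 0.136 units by a floor of 3 reads, or 0.167 units by the Poisson limit, neither of which is below the control values, and no difference of Epgn was detectable at this depth.

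The protein-coding genes on either side of the cluster were set beside it. Before Epgn, the one-carbon enzyme gene Mthfd2l had 1.95 to 2.98 units in the controls, against 2.66 to 2.79 in the mutants, and the chemokine gene Cxcl2 had 0.0540 to 0.154 and 0.155 to 2.61 units. After Btc, Parm1 had 5.43 to 9.37 units in the controls, against 6.11 to 7.57 in the mutants, and the ubiquitin ligase gene Rchy1 had 18.0 to 23.1 and 21.2 to 23.0 units. The group ranges overlapped for Mthfd2l, Parm1 and Rchy1, and touched without overlap for Cxcl2, which was below the mean needed for testing.

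Transforming growth factor α, encoded by Tgfa, was the most abundant ligand transcript of control crypts. Tgfa stood at 6.67, 6.97 and 5.71 units in control replicates 1 to 3 and at 7.56, 5.82 and 9.23 units in mutant replicates 1 to 3, with overlap between the groups. Its log2 difference of 0.18 ± 0.18 (SE; adjusted p of 0.702 in limma) was no larger than its error, with 426 to 522 reads in every library. Egf, the founding member of the family, had 1.75, 0.545 and 0.866 units in control replicates 1 to 3 and 1.09, 1.17 and 0.388 units in mutant replicates 1 to 3. The Egf values of the groups overlapped, and control replicate 1, which was highest for Egf, also had the highest summed level of Paneth cell markers (369783 units against 39416 to 177388 in the others). Mutant replicate 3 was lowest for both. Control replicate 2, with 173912 units of Paneth markers, had less Egf than mutant replicate 1, with 60704 units. The part of Paneth cells in the Egf values was not tested.

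**Figure D1:**
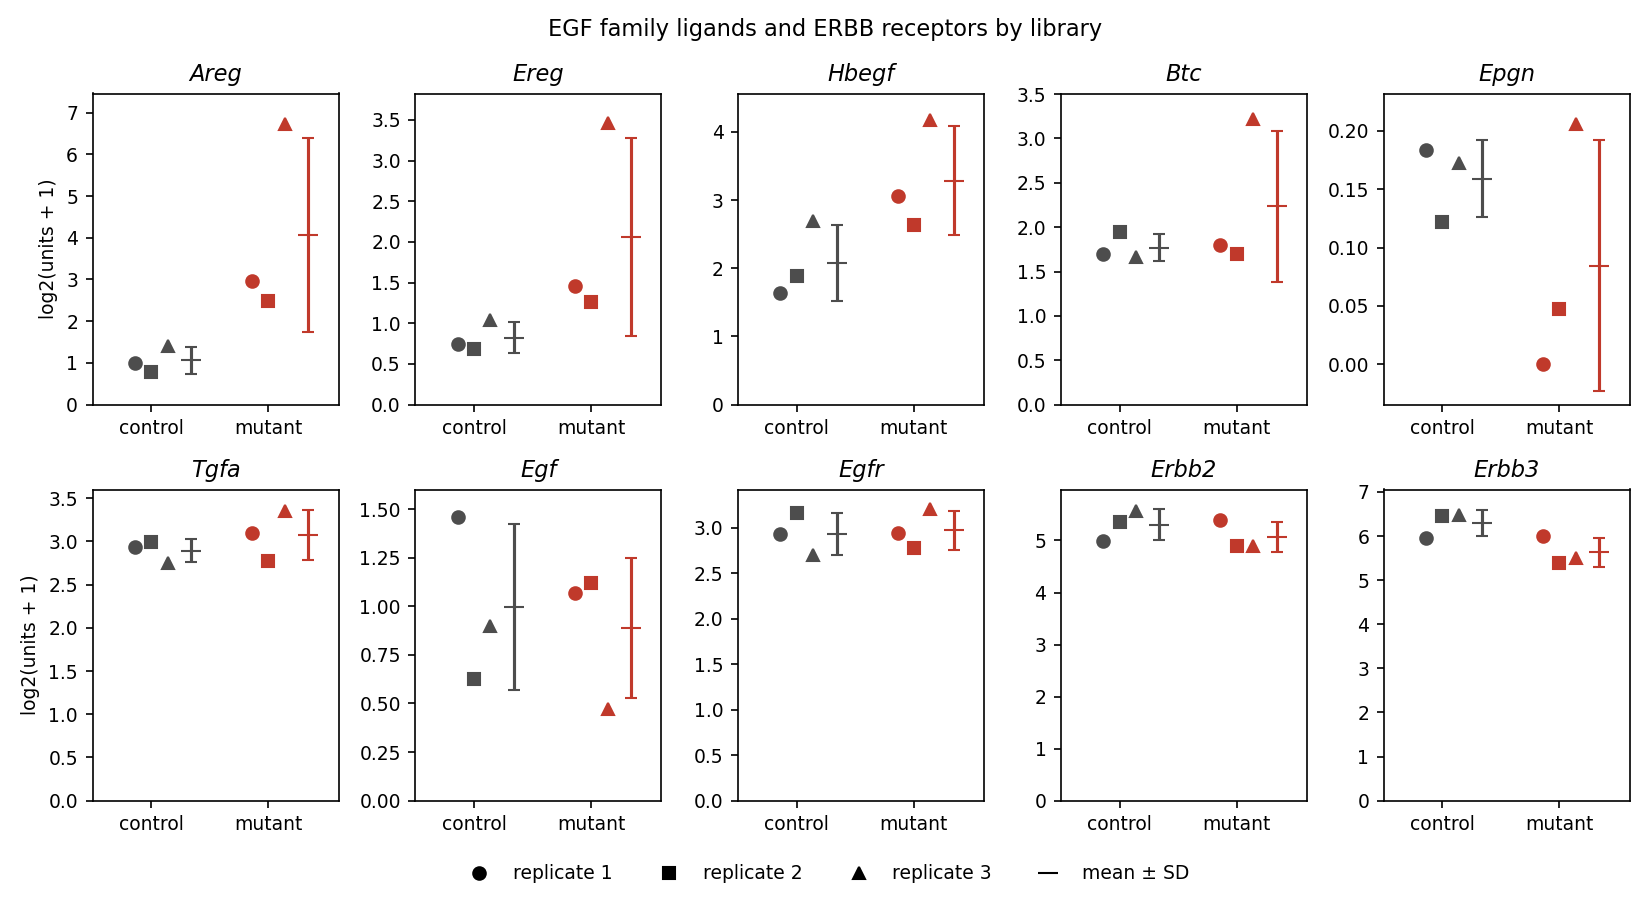
Each panel plots log2(units + 1) of a member in the 3 control (grey) and 3 mutant (red) libraries, with marker shape for the replicate and a bar for the mean ± SD (n = 3). Areg and Ereg are the 2 members whose mutant values all lie above the control values, and mutant replicate 3 is highest for Areg, Ereg, Hbegf, Btc and Tgfa.

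The make-up of the ligand pool differed between the groups. The 7 ligands summed to 14.6, 14.5 and 17.1 units in control replicates 1 to 3 and to 27.1, 20.4 and 150.6 units in mutant replicates 1 to 3, above every control library in each. Without Areg the sums were 13.6, 13.8 and 15.4 units in the controls, against 20.2, 15.8 and 45.1 units in the mutants. Areg made up 6.89, 4.95 and 9.64% of the ligand units in the controls, against 25.3, 22.5 and 70.0% in the mutants. Tgfa made up 45.7, 48.1 and 33.5% in the controls, against 27.9, 28.5 and 6.12% in the mutants, and these ranges did not overlap. This share also depends on the other ligands in the sum. The level of Tgfa itself was 5.71 to 6.97 units in the controls, against 5.82 to 9.23 in the mutants, so its lower share is not a separate result. Tgfa was the highest ligand in all libraries but mutant replicate 3, where Areg was. Ereg made up 4.18 to 6.18% in the controls, against 6.48 to 6.81% in the mutants, again without overlap but with a narrow gap. The shares were set out after the levels had been seen and were not tested.

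**Figure D2:**
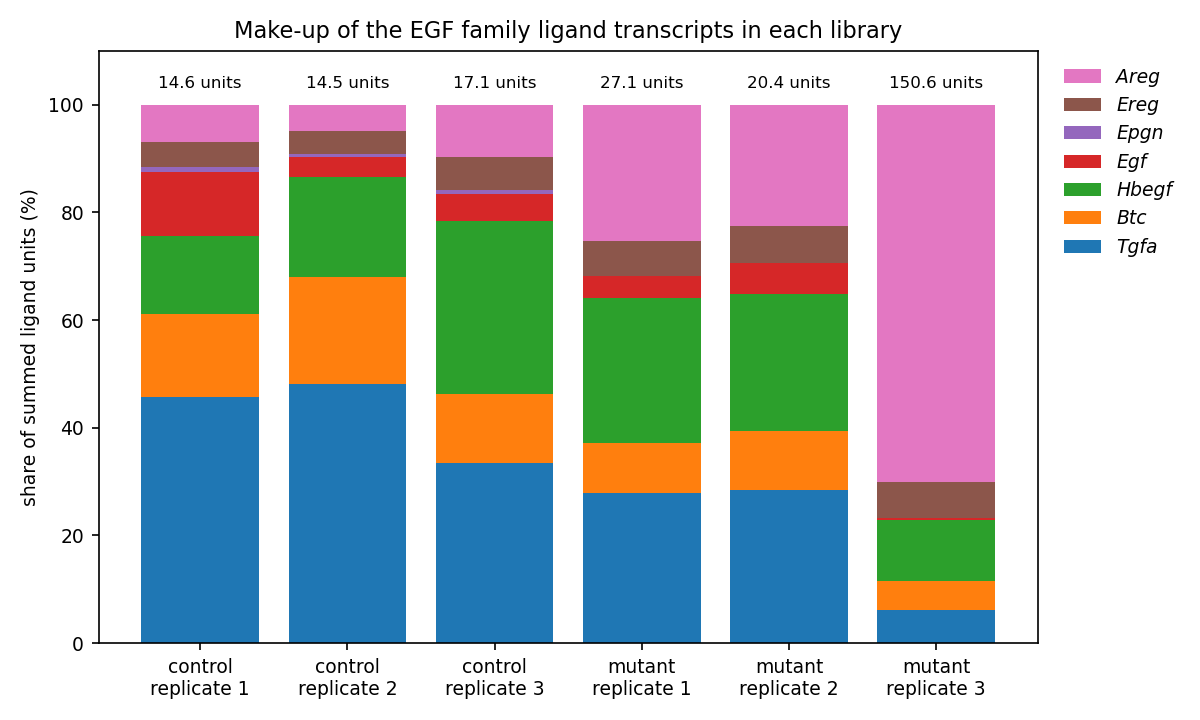
Stacked bars give the share of each ligand in the summed ligand units of a library in percent, with the sum in units above each bar. Areg takes 4.95 to 9.64% of the control bars and 22.5 to 70.0% of the mutant bars, and Tgfa is the largest part of all bars but that of mutant replicate 3.

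In control crypts Erbb2 and Erbb3 stood above every ligand, and Egfr stood near Tgfa. Egfr, the receptor of all 7 ligands, had 6.61, 7.93 and 5.49 units in control replicates 1 to 3 and 6.66, 5.85 and 8.18 units in mutant replicates 1 to 3. The Egfr ranges overlapped almost fully, and its log2 difference was 0.04 ± 0.18 (SE; adjusted p of 0.937 in limma). Erbb2, the partner receptor, had 30.7, 39.8 and 46.6 units in the controls, against 41.3, 28.7 and 28.9 units in the mutants. Mutant replicates 2 and 3 lay below all control libraries for Erbb2 and mutant replicate 1 lay among them, with a log2 difference of -0.24 ± 0.22 (SE; adjusted p of 0.674 in limma).

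Erbb3, the neuregulin receptor that recruits PI3K, was the highest of the 10 genes in all libraries but mutant replicate 3, where Areg was. It had 60.8, 86.1 and 88.7 units in control replicates 1 to 3 and 63.1, 41.1 and 44.4 units in mutant replicates 1 to 3. The mutant values lay lower apart from an overlap of mutant replicate 1 with control replicate 1. The log2 difference was -0.66 ± 0.23 (SE; adjusted p of 0.589 in limma), and it was -0.60 without mutant replicate 3 (adjusted p of 0.829 in limma). This difference did not rest on that library alone. Mutant replicates 1 to 3 stood -0.29, -0.90 and -0.79 from the control mean in log2(units + 1), so it was mainly that of replicates 2 and 3. The ratio of Erbb3 to Erbb2 was 1.98, 2.16 and 1.90 in control replicates 1 to 3 and 1.53, 1.43 and 1.54 in mutant replicates 1 to 3, with no overlap. The other ratios between receptors overlapped: Erbb3 to Egfr was 9.20 to 16.2 in the controls, against 5.42 to 9.49 in the mutants, and Erbb2 to Egfr was 4.64 to 8.49 and 3.53 to 6.20. These 3 ratios were chosen after the values were seen and were not tested.

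Ranked by their mean in control crypts, per length, the members were Erbb3 (78.6 ± 15.4 units, SD, n = 3), Erbb2 (39.1 ± 7.97), Egfr (6.68 ± 1.22), Tgfa (6.45 ± 0.654), Hbegf (3.43 ± 1.81), Btc (2.43 ± 0.382), Areg (1.12 ± 0.476), Egf (1.05 ± 0.626), Ereg (0.778 ± 0.243) and Epgn (0.117 ± 0.0254). Neighbours in this order whose control values overlapped were Egfr and Tgfa, Hbegf and Btc, and Areg, Egf and Ereg. In mutant crypts the order of means began with Erbb3 (49.5 ± 11.9), Areg (39.0 ± 57.6) and Erbb2 (33.0 ± 7.20), with values that overlapped, and without mutant replicate 3 the mean of Areg was 5.73 units, below those of the 3 receptors, Tgfa (6.69) and Hbegf (6.25). The mean of Areg was at or above that of 39.8% of the genes detected in any library in control crypts and 88.0% in mutant crypts, while Egfr stayed at 58.1 and 58.8%. The 88.0% of Areg rests on mutant replicate 3, without which its mean was 5.73 units, and the share was not recomputed without that library.

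**Figure D3:**
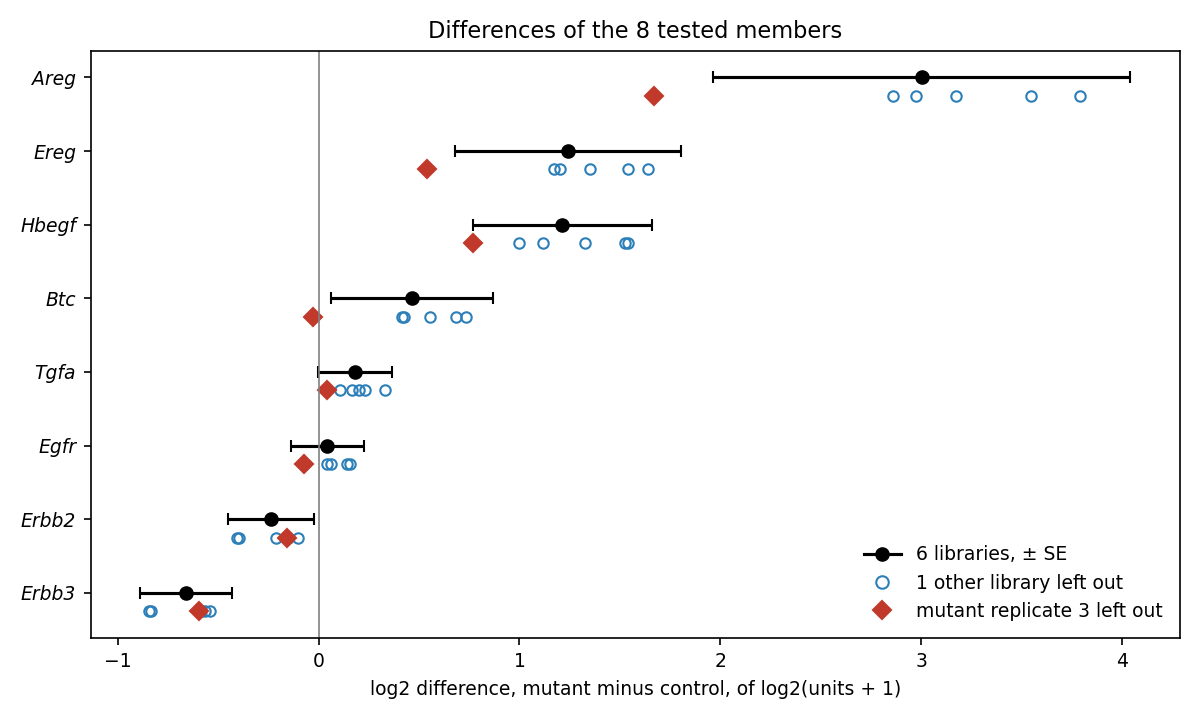
Black points give the log2 difference of the 8 tested members, mutant minus control, with the SE; blue circles leave out 1 other library each and red diamonds leave out mutant replicate 3. The differences of Areg, Ereg and Hbegf shrink without mutant replicate 3 but stay above 0, that of Btc goes to -0.03, and that of Erbb3 stays below 0 in each fit.

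Genes of the pathway beyond the members were taken from a list of 60, of which 54 were tested. No pathway gene passed the adjusted threshold, 29 were higher and 25 lower in mutant crypts, and the median log2 difference was 0.05. Every mutant library was above every control library for 10 of the 54 and below for 4, beside the 8.34% and 8.37% of all genes.

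Of the remaining ligands and receptor of the family, only Nrg4 passed the filter on low values. Nrg4, an ERBB4 ligand, stood lower in all 3 mutant libraries, at 2.17, 2.15 and 2.89 units in the controls, against 1.32, 1.41 and 1.14 units in the mutants (log2 difference of -0.57 ± 0.17, SE; adjusted p of 0.589 in limma). The reads behind the Nrg4 values were 56, 57 and 106 in the controls, against 34, 49 and 26 in the mutants. Erbb4 was listed at 0 in every library, and Nrg1, Nrg2 and Nrg3 were at or below 0.153 units.

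Of the 5 genes that release or traffic ligands, 4 were higher and 1 lower, with a median log2 difference of 0.43, and 0.19 without mutant replicate 3. Rhbdl2, which encodes a rhomboid protease of the cell surface, had 7.58, 4.55 and 5.24 units in control replicates 1 to 3 and 17.0, 13.2 and 23.4 units in mutant replicates 1 to 3. All mutant values of Rhbdl2 were above the control values, and the log2 difference of 1.46 ± 0.25 (SE; adjusted p of 0.324 in limma) was 1.26 without mutant replicate 3. Rhbdl2 passed under 1 alternative, array weights (adjusted p of 0.0386 in limma). That fit leaned on mutant replicate 1, with a weight of 6.47 against 0.576 and 0.228 for mutant replicates 2 and 3. Rhbdf2, the iRhom that escorts ADAM17 to the surface, had 6.98 ± 0.838 and 13.9 ± 6.07 units (SD, n = 3 each), with no overlap and a log2 difference that went from 0.83 to 0.52 without mutant replicate 3. The sheddases themselves stood nearly level, Adam10 at 37.3 ± 2.68 and 41.9 ± 7.23 units and Adam17 at 13.8 ± 0.991 and 12.9 ± 0.934 units.

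Adaptors and the RAS-ERK cascade were split, with 7 higher and 10 lower of 17 and a median of -0.02. Map2k2, the kinase MEK2, had 54.4 ± 2.13 and 73.4 ± 10.4 units, and Hras had 18.8 ± 0.309 and 23.0 ± 2.72 units, both without overlap. Of 6 genes of the PI3K arm 2 were higher and 4 lower (median of -0.12, and -0.04 without mutant replicate 3). The regulatory subunit gene Pik3r1 had 26.4 ± 8.74 and 16.1 ± 6.26 units, with overlap and a log2 difference of -0.71, or -0.41 without mutant replicate 3 and -0.47 without control replicate 2, and the catalytic subunit gene Pik3ca had 7.89 ± 0.936 and 6.47 ± 0.329 units, without.

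Inhibitors of the receptors or of ERK were likewise split, 8 higher and 9 lower of 17 tested (median of -0.01). The ERK phosphatase gene Dusp6, a feedback target of ERK, stood out with 7.99, 7.16 and 6.34 units in control replicates 1 to 3 and 19.9, 13.2 and 91.3 units in mutant replicates 1 to 3. Its values in mutant replicates 1 and 2 were also above all controls, and the log2 difference was 1.89 ± 0.64 (SE; adjusted p of 0.589 in limma), or 1.09 without mutant replicate 3. Errfi1, which encodes the EGFR inhibitor MIG6, had 8.32 ± 0.782 and 17.8 ± 10.6 units, without overlap, and its log2 difference went from 0.87 to 0.44 without mutant replicate 3. Lrig1, an ERBB inhibitor that marks stem cells, had 28.6 ± 3.51 and 26.5 ± 7.11 units, with overlap.

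ERK-responsive genes were higher in all 8 tested, with a median log2 difference of 1.05, and 0.56 without mutant replicate 3. Over all genes tested 5600 of 11837 were higher. The differences of Myc (0.19 ± 0.30, SE) and Ccnd1 (0.06 ± 0.16) were smaller than their errors, and those of the others were larger than theirs. Etv4, at 0.828 units in the controls, reached the mean needed for testing through its mutant values, so its place among the 8 is no support for a difference. In 4 of the 8 every mutant library was above every control library, beside 8.34% of all genes tested. The transcription factor gene Egr1 had 1.44, 3.38 and 2.26 units in control replicates 1 to 3 and 6.25, 9.71 and 12.3 units in mutant replicates 1 to 3 (log2 difference of 1.63 ± 0.30, SE; adjusted p of 0.396 in limma). Fos had 9.80, 11.5 and 20.9 units in the controls, against 49.8, 22.0 and 99.8 units in the mutants. Many of these genes also respond to tissue handling, and its part was not tested.

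**Figure D4:**
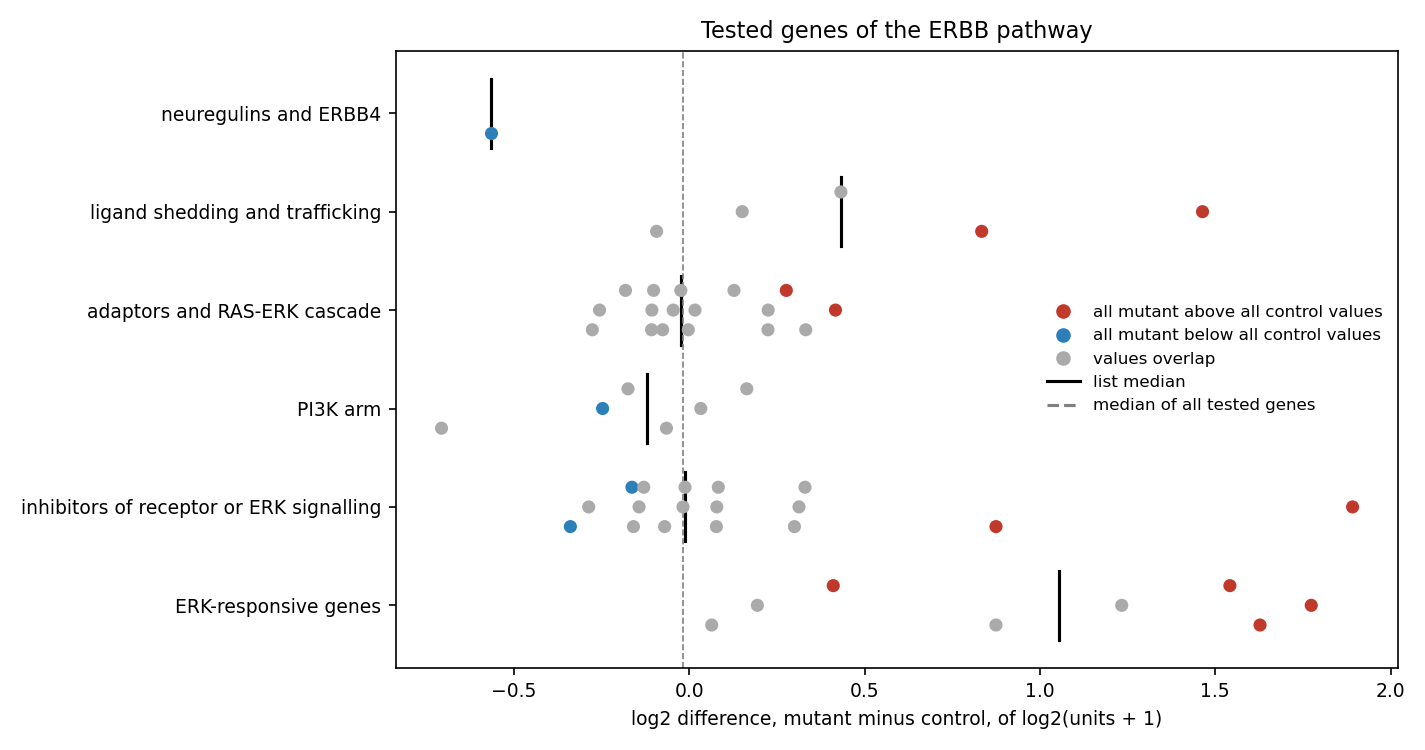
Each point is a tested pathway gene, placed by its log2 difference, mutant minus control, within its list; red and blue points have mutant values all above or all below the control values. The list median (black bar) is 1.05 for ERK-responsive genes and 0.43 for ligand shedding, and lies between -0.12 and -0.01 for the adaptors, the PI3K arm and the inhibitors.

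Genes with a pattern most like that of Areg were found by the root-mean-square distance between log2(units + 1) profiles over the 6 libraries, each centred on its control mean, among 8884 genes with a mean of at least 5 units. The nearest were Slfn4 (0.48), the acute-phase gene Saa1 (0.52), the sialic acid lyase gene Npl (0.53) and the p53 target gene Phlda3 (0.59), beside a median distance of 2.54. Their control means were 1.14, 0.469, 2.77 and 0.270 units, so all 4 reached the mean of 5 units through their mutant values. They were picked from these data for closeness to Areg, so the likeness is no support for a difference. Slfn4 had 0.704 to 1.45 units in the controls, against 3.05, 2.70 and 113.8 units in mutant replicates 1 to 3. The log2 differences of Slfn4, Saa1, Npl and Phlda3 were 2.50, 2.35, 2.60 and 2.74. Without mutant replicate 3 they were 0.87, 1.07, 1.56 and 1.88, and the distances were not recomputed without that library. For Egfr the nearest were Fbxw11 (0.05), Mier1 (0.05), Traf2 (0.06) and Hnf4a (0.07), beside a median of 0.32. These 4 genes, like Egfr, differed little between libraries.

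Markers of other cell types were set beside the ligands, which stromal and immune cells can also make. Stromal markers summed to 6.69 to 12.4 units in the controls, against 24.6, 19.1 and 45.1 units in mutant replicates 1 to 3. Of these 12 markers 10 were above in all mutant libraries, and Pdgfra was at 0 in all controls. Pdgfra and Lum were low in the mutants too, at 0.103 to 0.204 and 0.107 to 0.410 units. Over all 24930 genes, 5728 of them at 0 everywhere, 1592 were above in all mutant libraries and 1255 below. Myeloid markers summed to 18.6 to 33.7 and 24.7 to 65.3 units, with 4 of 9 above and S100a8 and S100a9 at 0 in all controls. Lymphocyte markers summed to 26.4 to 69.5 and 22.6 to 101 units with 0 of 8 above, endothelial markers to 0.327 to 0.859 and 0.256 to 2.20 units with 0 of 6, and smooth muscle markers to 1.98 to 3.46 and 3.15 to 11.1 units with 3 of 6. Mutant replicate 3 was highest for each of these 5 lists, as it was for Areg, Ereg, Hbegf and Btc, and their part in the ligand values was not tested.

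Within the epithelium, enterocyte markers summed to 3003 to 8370 units in the controls, against 4999 to 21636 in the mutants, Paneth markers to 105052 to 369783 and 39416 to 177388, crypt base stem cell markers to 562 to 1317 and 128 to 837, goblet markers to 4843 to 8109 and 6196 to 9109, tuft markers to 25.4 to 70.5 and 20.0 to 25.7, and enteroendocrine markers to 221 to 302 and 298 to 504 units. Of these markers 4 of 6 enteroendocrine genes were above in all mutant libraries, 2 of 6 tuft genes and 1 of 7 stem cell genes were below, and 0 of the enterocyte, Paneth and goblet genes stood apart. Over all 24930 genes 1592 were above and 1255 below. The part of these cell types in the member values was not tested. Mutant replicate 3, the library with the most Areg, had the lowest stem cell and Paneth sums and the highest enterocyte sum. Not every marker followed its sum. Of the stem cell list, Olfm4, Lgr5, Ascl2 and Smoc2 were lowest in that library, Znrf3 was not, and Axin2 (35.4 units) and Rnf43 (20.5) were highest there. Mmp7 of the Paneth list was not lowest, and Sis and Lct of the enterocyte list were not highest, unlike the other markers of these 2 lists. Xist and Y-linked genes marked control replicates 1 and 2 and mutant replicate 1 as male. The log2 difference of Areg was 2.08 between male and 3.21 between female libraries, that of Ereg 0.75 and 1.32, that of Hbegf 1.30 and 0.70 and that of Erbb3 -0.19 and -1.04, with 1 mutant library among the male and 1 control library among the female.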

How the data were processed

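RNA of crypt epithelium was purified with poly-T beads and sequenced from randomly primed cDNA, per the labels' protocols. The authors deposited a normalized signal per gene. Tools named, without their roles, per the submitters' processing notes are DESeq2 1.40.1 and kallisto 0.46.1, with build mm9; annotation and filters: not given in the sources used here. For genes above 0 in every library, the ratio of a library's value to the gene's geometric mean was taken. Its median over genes was 0.990 to 1.01 in the libraries, and 0 value columns lacked a sample.

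The 11837 genes that averaged 1 unit or more were tested with limma 3.58.1 in R 4.3.3 on log2(units + 1), which understates the change of low genes, with a mean-variance trend and Benjamini-Hochberg adjustment over all of them. The test was tested on simulated data. Reads per unit came from steps among values under 0.3 units; a gene's reads are the smallest whole numbers that fit all 6 libraries within 0.01, found for 6 of 10 members; the true reads could be a multiple of these. Egf and the receptors gave no common step, so their depth is unknown. Whole reads were not recovered for the table as a whole, and no count model was run. Members, lists and the rule for named genes (the members, the 2 pathway genes of each list with the smallest p, any that passed, and the 4 genes most like Areg and Egfr) were chosen with earlier results of these data known; any further gene was picked with its values in view. Alternatives were other scalings, pseudocounts, filters, array weights, a replicate block, a sex covariate and leaving out each library. Python 3.11.15, pandas 2.3.3 and matplotlib 3.10.9 made the tables and figures.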

Additional observations from a re-analysis of the deposited data

How the results depend on the processing

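No member passed under any of the 15 alternatives, and 114 of 118 recomputed member values kept their direction. The log2 difference ranged from 1.67 to 3.79 for Areg, 0.54 to 1.83 for Ereg, 0.76 to 1.54 for Hbegf and -0.84 to -0.26 for Erbb3. Without 1 library each, it ranged from -0.025 to 0.74 for Btc (below 0 without mutant replicate 3), -0.073 to 0.16 for Egfr (below 0 without control replicate 3 or mutant replicate 3), -0.11 to 0.094 for Fbxw11, -0.12 to 0.14 for Mier1, -0.13 to 0.13 for Traf2 and -0.056 to 0.15 for Hnf4a. Erbb2 went to 0.12 and Traf2 to -0.067 with array weights, which were 6.47 for mutant replicate 1, against 0.576 and 0.228 for mutant replicates 2 and 3. Fbxw11 went to 0.039 and Mier1 to 0.055 with the sex covariate, and the cause of these changes was not tested.

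Over all genes 0 passed higher and 2 lower. With array weights, whose fit stopped before full convergence, these counts were 20 and 7, and 1 pathway gene (Rhbdl2) passed. With a pseudocount of 0.1, 1 gene passed higher, and with 5, 1 higher and 0 lower. With no filter, the sex covariate or the replicate block 0 passed lower. Without 1 library each, 0 to 2 passed higher (1 without control replicate 2 or mutant replicate 1, and 2 without mutant replicate 2) and 0 to 3 lower (1 without control replicate 3 or mutant replicate 2, and 0 without mutant replicate 1 or 3). Members above without overlap numbered 2 to 4 (4 without mutant replicate 2, with Hbegf and Tgfa), and members below 0 to 2 (Erbb3 without control replicate 1, Erbb2 and Erbb3 without mutant replicate 1, Epgn without mutant replicate 3).

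Same-numbered libraries share only a number: the correlations of their deviations were -0.29, 0.33 and 0.32, and replicate 1 did not correlate best with its own number. With the replicate block the adjusted p in limma was 0.383 for Areg and Hbegf, 0.400 for Ereg and 0.408 for Erbb3, and no member's call differed. Of the 6 members with recovered reads, Epgn had the fewest, at 0 to 4 a library.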
